A study of Mus musculus with 8 samples.

Results

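The genes described here mark the cells of brain blood vessels. The set of 36 gene symbols was drawn up as 28 genes of endothelial cells, 5 of pericytes and 3 of vascular smooth muscle, and all 36 were among the 24420 genes counted in every library. Brain capillaries are lined by endothelial cells that are sealed to each other by tight junctions and carry nutrients and drugs across by dedicated transporters. Pericytes sit on the outside of these capillaries, while smooth muscle cells ring the arteries and arterioles. Endothelial survival and sprouting depend on receptors for vascular endothelial growth factors and angiopoietins, and transcription factors of the ETS and SOX families hold endothelial identity.

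Poly(A) RNA of mouse prefrontal cortex was sequenced in 8 libraries. The romidepsin group (2 libraries) came from Shank3-deficient mice given the histone deacetylase inhibitor romidepsin by intraperitoneal injection, at 0.25 mg/kg once a day for 3 days, with tissue taken 1 day after the last dose. The saline group (3 libraries) came from Shank3-deficient mice given saline, and wild type (3 libraries) from wild-type mice for which the labels name no treatment. The series text describes the mutants as male heterozygotes that express Shank3 without its C-terminal part, through deletion of exon 21 in 1 copy, and the wild-type animals as male littermates of the same age. Ages are 5 to 6 weeks in the labels of the samples and 5 to 8 weeks in the series text. Both Shank3-deficient groups carry the same deletion, and no wild-type library is labelled as given romidepsin. Where the saline group is set against wild type, genotype and saline injection cannot be told apart. The labels do not say whether a library is 1 animal or a pool, so p-values measure the spread between these libraries, which may be technical.

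Library totals over genes lay between 7783538 and 15156318 counts. Over all genes saline library 2 and wild-type library 3 stood apart from the rest of their groups. The chi-square per degree of freedom was 9.44 and 8.67 between saline library 2 and the other saline libraries, against 4.59 between those. It was 14.2 and 9.88 between wild-type library 3 and the other wild-type libraries, against 4.71 between those, and 20.76, the highest of all pairs, between saline library 2 and wild-type library 3. Shank3, the targeted gene (chromosome 15, 89499623 to 89560261, GRCm38), stood at 315 and 313 CPM under romidepsin, at 316, 252 and 301 CPM under saline, and at 299, 308 and 348 CPM in wild type. CPM is the read count scaled to a common library size. The groups overlapped, and counts over the whole gene do not check a deletion of 1 exon in 1 copy. The labels give the cell type as neurons and the tissue as prefrontal cortical slices. Neuronal markers were abundant, with a summed 14528 and 14342 CPM over 10 genes in the romidepsin group, 13411 to 13837 CPM in the saline group and 13257 to 14956 CPM in wild type. Astrocyte, oligodendrocyte, microglial and vessel markers were also read in every library, so the libraries hold more cell types than the label names. In such tissue RNA, fewer cells of a type and less RNA per cell cannot be told apart.

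All 36 vessel genes passed the filter on low counts, with 13 to 2147 reads per gene and library. Per kilobase of exon, a scale on which genes can be compared, the most abundant in wild type were the glucose transporter gene Slc2a1 with a mean level of 31.3 CPM per kb, the membrane protein gene Itm2a with 30.8 and the pericyte gene Vtn, which encodes vitronectin, with 30.8. The thyroid hormone transporter gene Slco1c1 followed at 27.4 and the tight junction gene Cldn5 at 23.8 CPM per kb. The lowest levels were those of the transcription factor gene Sox17, at 0.915 CPM per kb, and the guidance receptor gene Robo4, at 1.16. Several of the abundant genes are not restricted to vessels: astrocytes also express Slc2a1 and Slco1c1, and the scaffold gene Tjp1 is expressed by many cell types. Exons of 29 of the 36 genes overlap no other annotated gene. Tagln shares 60.9% of its exonic bases with neighbouring genes, Egfl7 14.1% and Notch3 6.1%, so their counts are less certain.

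Endothelial transcripts were mostly lower in saline-treated mutants, relative to wild type. The log2 fold change was below 0 for 27 of 28 endothelial genes, with a median of -0.31, against 48.7% of the 14809 genes tested (51.3% were above 0) and a median of 0.0047 over all of them. Among 29 of all 36 members, those with few known sources outside vessels, 25 were below 0, with a median of -0.31. These 29 include pericyte and smooth muscle genes and leave out Tjp1, Ets1, Slc2a1, Slco1c1, Ocln, Vtn and Notch3. No vessel gene passed the edgeR quasi-likelihood test at an adjusted p under 0.05, a threshold that 1 gene in all, or 0.00675%, passed (smallest adjusted p among the 36 genes = 0.183). At an unadjusted p under 0.05, 14 of 28 endothelial genes and 16 of all 36 were lower and none higher, where 4.80% of all genes tested were lower and 3.59% higher. In 13 endothelial genes every saline library lay below every wild-type library, as 6.36% of all genes tested did, and in none did every saline library lie above (6.26% of all genes). DESeq2 called 2 of the 36 genes, Flt1 and Adgrl4, and 29 of all genes, while limma-voom called 0 of the 36 and 1 of all. With saline library 2 and wild-type library 3, which stand apart, both left out, 21 of 28 endothelial genes were below 0 (median -0.21). In that fit 4 in place of 14 were lower at an unadjusted p under 0.05, and edgeR called none of the 36 and 99 of all genes. The share of all genes at that unadjusted p was not counted there, and the 4.80% above is from the full fit. The genes were listed with earlier results of these data known, and these counts over them are descriptions.

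**Figure D1:**
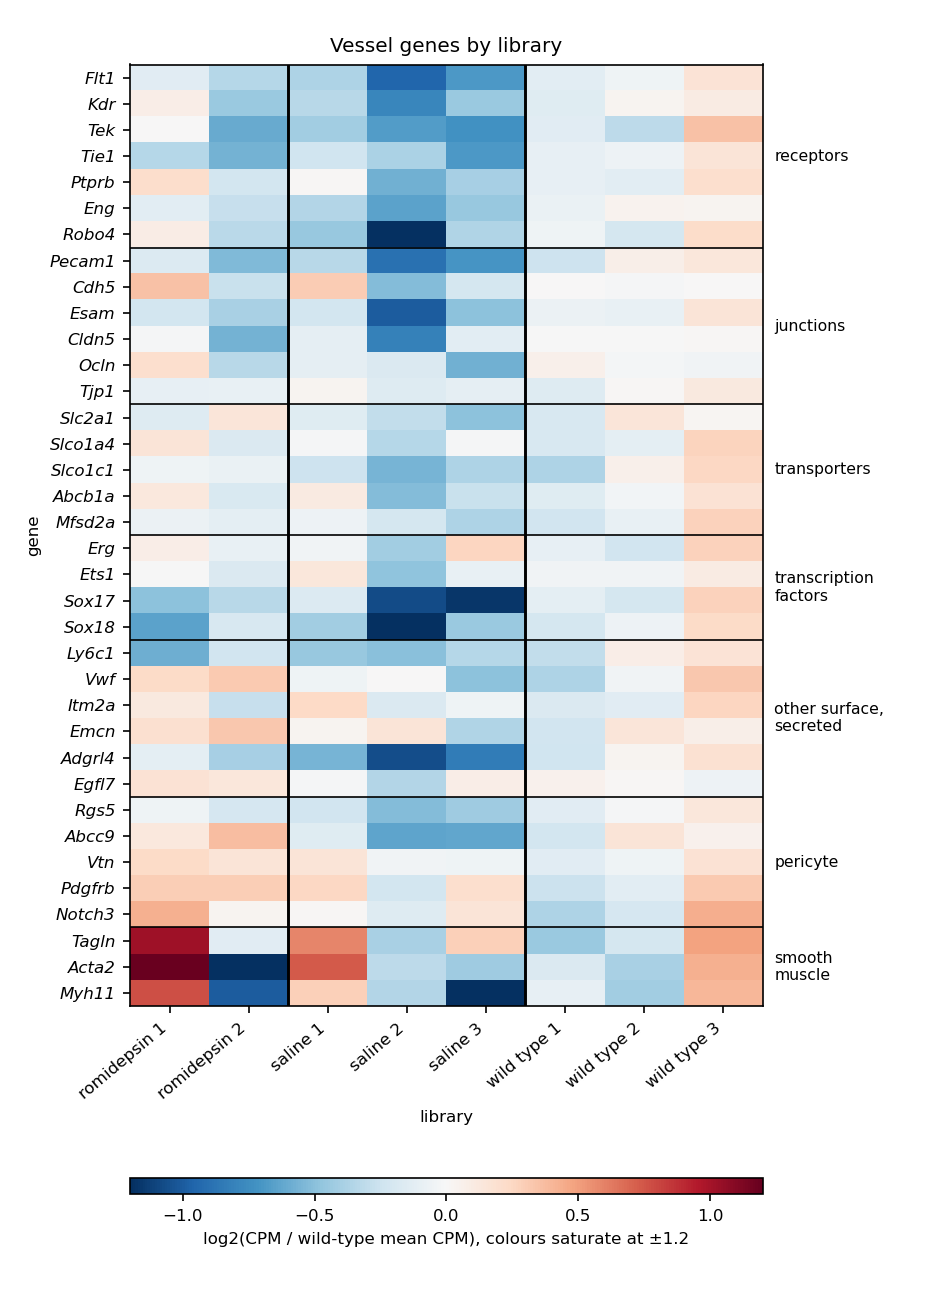
Each cell gives the log2 ratio of a gene's CPM in a library to its wild-type mean CPM, for 36 vessel genes (rows, by role) in 2 romidepsin, 3 saline and 3 wild-type libraries (columns). Saline libraries 2 and 3 are blue over most endothelial rows, and smooth muscle rows span the widest range, from dark red in romidepsin library 1 to dark blue in romidepsin library 2.

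The 5 vessel genes with the smallest p in saline against wild type were Adgrl4, Flt1, Eng, Pecam1 and Rgs5. The RefSeq table holds promoter windows for 4 of them, which are shown because these genes had the smallest p-values. Each run gives the 250 bases before the annotated start, 5′ to 3′ on the gene's strand, from GRCm38.p6. Capitals mark the letters GGAAG, a form of the core that ETS factors such as the products of Erg and Ets1 bind, or CTTCC, the same letters on the other strand.
Adgrl4 (chr3:151437632-151437881, plus strand): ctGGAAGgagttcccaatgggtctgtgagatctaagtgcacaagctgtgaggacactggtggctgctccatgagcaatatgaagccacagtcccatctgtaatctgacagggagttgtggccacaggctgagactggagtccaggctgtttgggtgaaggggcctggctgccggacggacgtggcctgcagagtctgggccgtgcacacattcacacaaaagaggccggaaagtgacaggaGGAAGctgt
Flt1 (chr5:147726012-147726261, minus strand): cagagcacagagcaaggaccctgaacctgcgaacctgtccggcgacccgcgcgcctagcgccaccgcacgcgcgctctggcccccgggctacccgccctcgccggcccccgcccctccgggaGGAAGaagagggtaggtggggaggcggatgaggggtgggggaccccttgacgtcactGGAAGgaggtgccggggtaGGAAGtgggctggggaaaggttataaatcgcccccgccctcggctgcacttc
Eng (chr2:32646345-32646594, plus strand): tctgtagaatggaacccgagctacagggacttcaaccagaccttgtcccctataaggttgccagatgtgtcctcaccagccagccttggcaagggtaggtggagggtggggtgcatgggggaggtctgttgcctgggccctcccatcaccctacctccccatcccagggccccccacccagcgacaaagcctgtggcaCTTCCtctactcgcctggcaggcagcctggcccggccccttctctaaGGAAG
Rgs5 (chr1:169655251-169655500, plus strand): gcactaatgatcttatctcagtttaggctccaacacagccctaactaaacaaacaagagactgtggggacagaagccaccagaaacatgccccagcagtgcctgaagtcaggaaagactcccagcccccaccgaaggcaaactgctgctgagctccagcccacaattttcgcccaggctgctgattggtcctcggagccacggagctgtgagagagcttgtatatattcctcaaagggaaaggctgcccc

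Flt1 held 3 matches, Adgrl4 and Eng 2 each and the pericyte gene Rgs5 none. Windows were found for 25 of the 36 genes, 31 windows in all, of which 20 (64.5%) held at least 1 match. The motif was in 64.1% of the 32851 windows of all genes, so its share among the vessel genes was near that of promoters at large. A match is a description of the letters and not evidence that a factor binds there.

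Receptors for growth factors and guidance cues were lower in the saline group in 7 of 7 genes, with a median log2 fold change of -0.49. Flt1 (chromosome 5, 147561604 to 147726011) encodes VEGF receptor 1, which binds VEGF and limits how much reaches the main receptor. It stood at 47.8, 31.9 and 38.3 CPM in the saline libraries, against 56.5, 59.5 and 69.4 CPM in wild type. Every saline library lay below the lowest wild-type library, and saline library 2 was the lowest. The mean was 39.3 ± 8.03 CPM in the saline group and 61.8 ± 6.73 CPM in wild type (SD, n = 3 each). The fitted level in the saline group was 0.642-fold that of wild type (95% interval 0.528 to 0.781, log2 fold change -0.64, SE 0.13), which did not pass in edgeR (adjusted p = 0.190). DESeq2 gave an adjusted p of 0.00497 for Flt1 and edgeR without saline library 1 gave 0.0247, within a range of 0.00497 to 0.669 over 16 alternative settings. Eng (chromosome 2, 32646595 to 32682669), which encodes endoglin, a coreceptor for TGF-beta family ligands, stood at 19.0, 15.6 and 17.7 CPM in the saline libraries, against 23.0, 25 and 24.9 CPM in wild type. The groups were again apart, with a level of 0.720-fold (95% interval 0.611 to 0.849, edgeR adjusted p = 0.271).

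The other receptor genes had wider intervals. Kdr, the main signalling receptor for VEGF, stood at 0.710-fold (95% interval 0.557 to 0.903) and the angiopoietin receptor gene Tek at 0.671-fold (0.504 to 0.892). Tie1, which encodes the partner of that receptor, stood at 0.753-fold (0.594 to 0.955), and Robo4, a guidance receptor gene of endothelium, at 0.626-fold (0.422 to 0.928). All 4 had saline libraries below all wild-type libraries and unadjusted p under 0.05, and none passed after adjustment over all genes. Of all genes tested, 6.36% lay apart in that direction and 4.80% were lower at that p. Ptprb, the phosphatase that restrains signalling of the Tek receptor, stood at 0.821-fold (0.647 to 1.04) with overlapping groups.

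**Figure D2:**
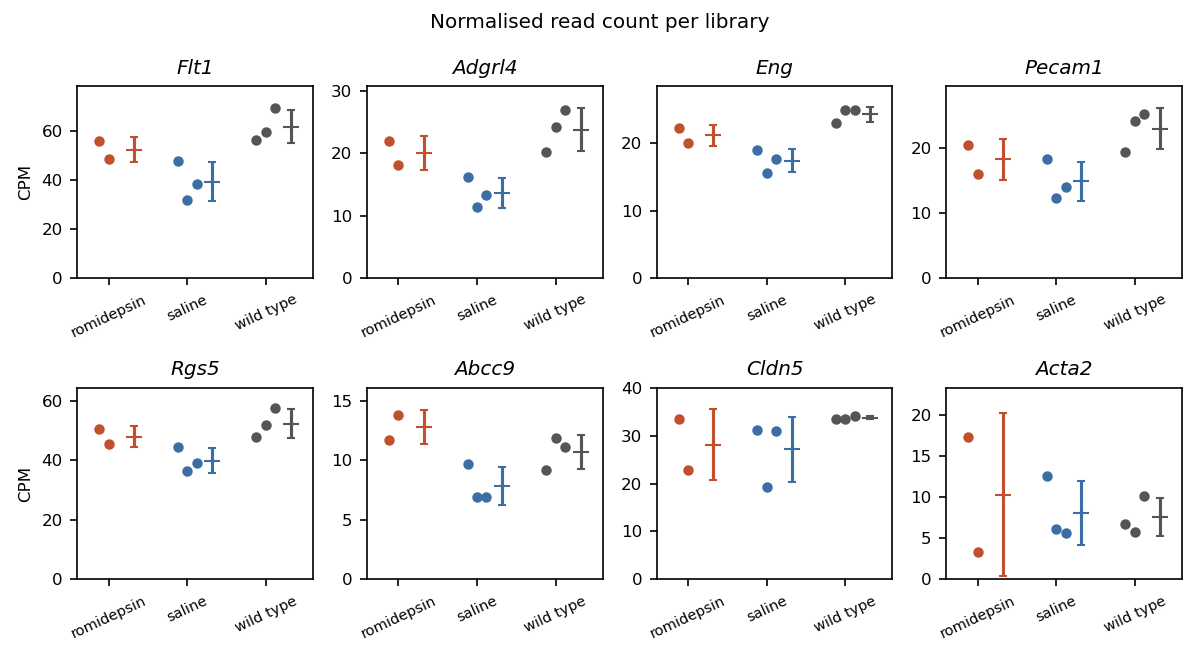
CPM per library (points; replicates run from left to right within a group) with the mean and SD beside them, for 8 vessel genes in romidepsin (n = 2), saline (n = 3) and wild type (n = 3). Flt1, Adgrl4, Eng, Pecam1, Rgs5 and Cldn5 have every saline library below every wild-type library. The 2 romidepsin libraries of Acta2 lie at 17.3 and 3.29 CPM.

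Junction genes were lower in 6 of 6, with a median log2 fold change of -0.28 and a span from -0.60 to -0.07. Pecam1 (chromosome 11, 106654217 to 106750628) encodes the adhesion molecule CD31, which lines contacts between endothelial cells. It stood at 18.2, 12.3 and 14 CPM in the saline libraries, against 19.3, 24 and 25.2 CPM in wild type, a level of 0.658-fold (95% interval 0.520 to 0.832, edgeR adjusted p = 0.325). Saline library 1 came close to the lowest wild-type library, yet the groups did not overlap. Esam (chromosome 9, 37528078 to 37538319), an adhesion molecule gene of endothelial tight junctions, stood at 11.3, 6.60 and 9.36 CPM in the saline libraries, against 12.6, 12.4 and 14.7 CPM in wild type (0.696-fold, 95% interval 0.535 to 0.905, edgeR adjusted p = 0.424). Cldn5, the main claudin of the blood-brain barrier, stood at 31.2, 19.2 and 30.9 CPM in the saline libraries, against 33.5, 33.5 and 34.1 CPM in wild type. Saline library 2 lay well below the other saline libraries, all 3 lay below wild type, and the interval of the fold (0.622 to 1.05) included 1. The occludin gene Ocln stood at 0.838-fold (0.635 to 1.11), the vascular cadherin gene Cdh5 at 0.952-fold (0.707 to 1.28) and Tjp1 at 0.953-fold (0.843 to 1.08).

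Transporter genes of the barrier had a median log2 fold change of -0.20 over 5 genes, all of them below 0. Slco1c1 (chromosome 6, 141524368 to 141570177) stood at 75.6, 61.1 and 69.6 CPM in the saline libraries, against 69.8, 93.6 and 107 CPM in wild type, and the groups overlapped. Its level was 0.766-fold (95% interval 0.629 to 0.932, edgeR adjusted p = 0.437). Slc2a1 (chromosome 4, 119108711 to 119137983), the glucose transporter of the barrier, stood at 92.1, 83.2 and 72.5 CPM in the saline libraries, against 89.2, 113 and 104 CPM in wild type, with overlap again (0.812-fold, 95% interval 0.688 to 0.957, edgeR adjusted p = 0.465). The lipid transporter gene Mfsd2a stood at 0.871-fold (0.716 to 1.06), the drug efflux pump gene Abcb1a at 0.876-fold (0.702 to 1.09) and the organic anion transporter gene Slco1a4 at 0.923-fold (0.753 to 1.13). None of the 5 transporters separated the groups. Of all genes tested, 6.36% separated them with saline lower and 6.26% with saline higher, so none of 5 is no particular trait.

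Among the transcription factor genes, the SOX pair had lower folds than the ETS pair. Sox18 (chromosome 2, 181669836 to 181671640) stood at 4.59, 2.1 and 4.49 CPM in the saline libraries, against 5.31, 5.87 and 7.21 CPM in wild type (0.614-fold, 95% interval 0.412 to 0.914, edgeR adjusted p = 0.476). Sox17 (chromosome 1, 4490931 to 4497354) stood at 3.34, 1.78 and 1.67 CPM in the saline libraries, against 3.45, 3.24 and 4.55 CPM in wild type, and saline library 1 overlapped with wild type (0.635-fold, 95% interval 0.410 to 0.984, edgeR adjusted p = 0.579). This pair is among the vessel genes with the fewest reads, from 13 to 92 per library over the pair. Erg stood at 0.967-fold (0.691 to 1.35) and Ets1 at 0.928-fold (0.744 to 1.16), with overlapping groups. The difference between the pairs was not tested.

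Of the remaining endothelial genes, Adgrl4 had the smallest p of all 36. Adgrl4 (chromosome 3, 151437887 to 151545086) encodes an adhesion G protein-coupled receptor of endothelium. It stood at 16.2, 11.4 and 13.3 CPM in the saline libraries, against 20.2, 24.3 and 27 CPM in wild type, a level of 0.579-fold (95% interval 0.464 to 0.723, log2 fold change -0.79, SE 0.15, edgeR adjusted p = 0.183). Every saline library lay below every wild-type library. The adjusted p was 0.00497 in DESeq2 and 0.0174 in edgeR with no filter on low counts, within a range of 0.00497 to 0.669 over 16 alternative settings. Ly6c1 (chromosome 15, 75044018 to 75048830), a surface protein gene of brain capillaries, stood at 12.7, 12.3 and 13.7 CPM in the saline libraries, against 14.2, 18.4 and 19.5 CPM in wild type (0.739-fold, 95% interval 0.595 to 0.919, edgeR adjusted p = 0.422). The clotting factor gene Vwf, the sialomucin gene Emcn, the secreted factor gene Egfl7 and Itm2a lay between 0.899-fold and 1.02-fold, and their groups overlapped.

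Pericyte genes did not share a direction between the saline group and wild type, with 2 of 5 lower and 3 higher and a median log2 fold change of 0.0083. Rgs5 (chromosome 1, 169655501 to 169695813), a regulator of G protein signalling that marks pericytes, stood at 44.5, 36.4 and 39.0 CPM in the saline libraries, against 47.7, 51.9 and 57.5 CPM in wild type. The groups were apart (0.766-fold, 95% interval 0.660 to 0.890, edgeR adjusted p = 0.325). Abcc9 (chromosome 6, 142587862 to 142702315), a regulatory subunit of potassium channels, stood at 9.70, 6.92 and 6.93 CPM in the saline libraries, against 9.18, 11.9 and 11.1 CPM in wild type, with saline library 1 inside the wild-type range (0.744-fold, 95% interval 0.573 to 0.965, edgeR adjusted p = 0.531). Vtn stood at 1.02-fold (0.882 to 1.18), the platelet-derived growth factor receptor gene Pdgfrb at 1.07-fold (0.849 to 1.34) and the Notch receptor gene Notch3 at 1.01-fold (0.756 to 1.34). The sign of the pericyte median turned with single libraries, to -0.14 without wild-type library 1.

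**Figure D3:**
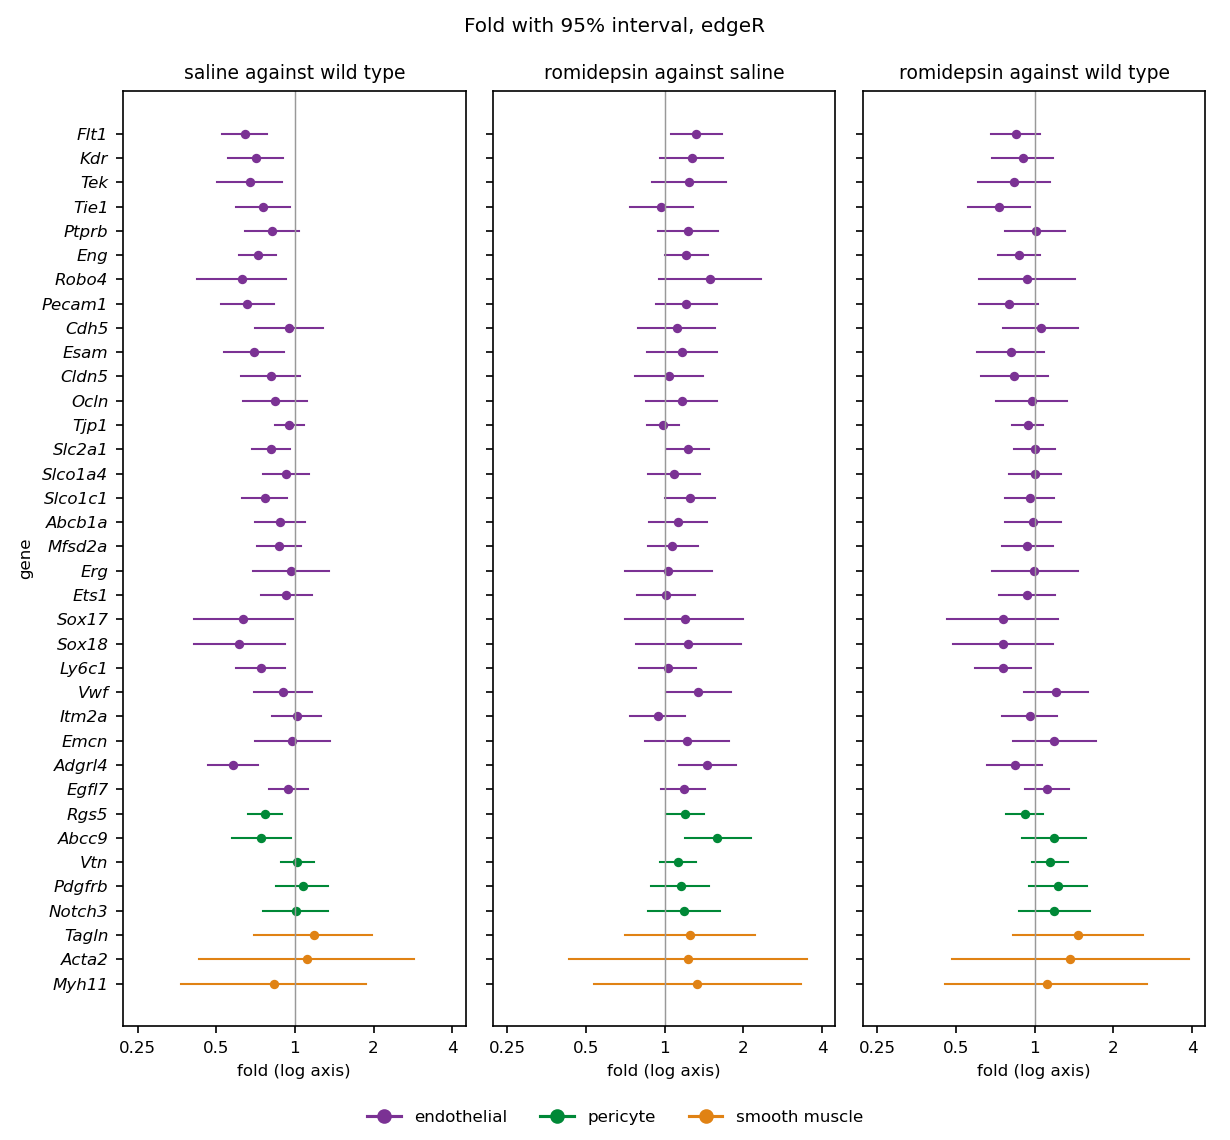
Fold of each vessel gene (points) with its 95% interval (lines) on a log axis, for saline against wild type, romidepsin against saline and romidepsin against wild type, from edgeR. In saline against wild type 27 of 28 endothelial points lie left of 1, and smooth muscle intervals are the widest, reaching from 0.431 to 2.87 for Acta2.

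Smooth muscle genes varied more between libraries of 1 group than between groups. Acta2 (chromosome 19, 34241090 to 34255590), smooth muscle actin, stood at 17.3 and 3.29 CPM under romidepsin, 12.6, 6.08 and 5.64 CPM under saline and 6.74, 5.80 and 10.2 CPM in wild type. Its highest and lowest libraries, 5.27 times apart, were the pair given romidepsin. Myh11 (chromosome 16, 14194535 to 14291372), smooth muscle myosin, stood at 15.1 and 4.42 CPM under romidepsin, 10.8, 6.92 and 3.21 CPM under saline and 8.25, 6.63 and 11.7 CPM in wild type. Tagln (chromosome 9, 45929619 to 45936058), an actin-binding protein gene of smooth muscle, stood at 15.5 and 7.0 CPM under romidepsin, 11.5, 5.87 and 9.36 CPM under saline and 5.64, 6.63 and 10.7 CPM in wild type. Romidepsin library 1 was the highest for all 3 genes, and all group pairs overlapped.

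The spread of log2 CPM within groups had an SD of 0.88 for Acta2, 0.81 for Myh11 and 0.56 for Tagln, above that of 99.4%, 99.1% and 95.8% of the genes tested. Its median was 0.23 for endothelial genes and 0.22 for pericyte genes, and 0.15 for all genes tested. No difference of the smooth muscle genes came near the threshold (edgeR adjusted p from 0.891 to 1.00 over the 3 comparisons), and the intervals for Acta2 included folds of 0.431 and 2.87 in saline against wild type. At this spread, differences of such size were not detectable. In romidepsin against saline the log2 fold changes were 0.32 for Tagln, 0.30 for Acta2 and 0.42 for Myh11. Without romidepsin library 1 they were -0.37 for Tagln, -1.35 for Acta2 and -0.72 for Myh11.

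**Figure D4:**
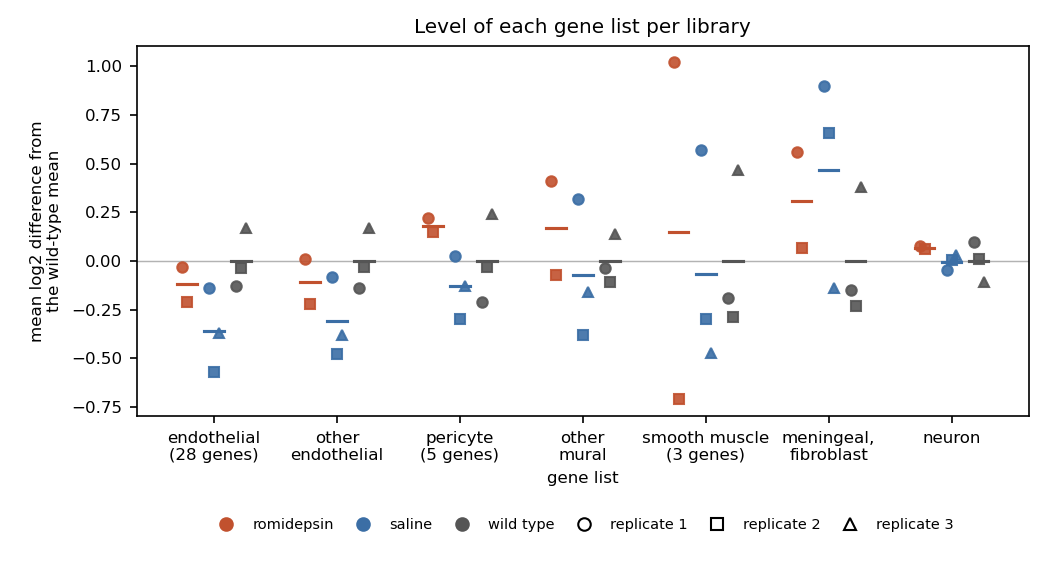
Mean log2 difference of each gene list from its wild-type mean in 2 romidepsin, 3 saline and 3 wild-type libraries (points, shape by replicate number), with group means as bars. Saline library 2 is the lowest in both endothelial lists, and smooth muscle libraries spread from 1.02 to -0.71.

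Many of the endothelial genes had their highest or lowest level in the same library. Their average log2 level, relative to wild type, was -0.033 and -0.21 under romidepsin, -0.14, -0.57 and -0.37 under saline, and -0.13, -0.034 and 0.17 in wild type. Saline library 1 and wild-type library 1 were close together, while saline library 2 was the lowest library for 17 of the 28 genes and wild-type library 3 the highest for 20. These are the libraries that also stood apart over all genes. Wild-type library 3 was also the highest of its group for the pericyte (0.24), smooth muscle (0.47), meningeal (0.38), astrocyte (0.3) and microglial (0.23) lists. It was not the highest for the neuronal (-0.11) and oligodendrocyte (0.19) lists. Leaving out single libraries moved the median log2 fold change of saline against wild type between -0.43, without saline library 1, and -0.27, without saline library 3. The count of endothelial genes below 0 stayed between 23 and 28 over the same 8 fits.

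Vessel genes outside the set were read the same way, in the same 8 libraries. These lists too were chosen with earlier results of these data known, so they are no independent check. The endothelial list was not narrowed to genes with few known sources outside vessels. In a separate list of 32 endothelial genes, 25 were lower in the saline group (48.7% of all genes were), with a median log2 fold change of -0.29, and 10 were lower at an unadjusted p under 0.05 (4.80% of all genes). None passed in edgeR, DESeq2 or limma-voom. Vwa1, a matrix protein gene that shares 25.2% of its exonic bases with other genes, stood at 23.7, 22.7 and 27.1 CPM in the saline libraries, against 33.1, 34.7 and 33.6 CPM in wild type (0.722-fold, 95% interval 0.626 to 0.832, edgeR adjusted p = 0.187). Nostrin, which encodes a partner of endothelial nitric oxide synthase, stood at 3.14, 2.31 and 3.21 CPM in the saline libraries, against 3.62, 6.40 and 7.53 CPM in wild type (0.494-fold, 95% interval 0.328 to 0.744, edgeR adjusted p = 0.345). A separate list of 16 mural cell genes had 8 lower and 8 higher, with a median of 0.0019, and none at an unadjusted p under 0.05 nor called by any of the 3 tools. Its smallest p-values belonged to Anpep, an aminopeptidase gene, at 1.49-fold (0.994 to 2.25), and Ndufa4l2, a mitochondrial protein gene of pericytes, at 0.701-fold (0.416 to 1.18).

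Vascular ligands and signalling partners, of these and other receptors, were mixed. Of 24 tested genes, 13 were lower and 11 higher in the saline group, with a median log2 fold change of -0.056. At an unadjusted p under 0.05, 4 were lower (16.7%) and 1 was higher (4.17%), where 4.80% of all genes were lower and 3.59% higher. Of these genes 0 passed in edgeR, DESeq2 or limma-voom. Aplnr, the apelin receptor gene, had too few reads to be tested. Apln, which encodes the peptide ligand apelin, stood at 38.7, 27.2 and 31.7 CPM in the saline libraries, against 37.6, 51.8 and 44.3 CPM in wild type (0.735-fold, 95% interval 0.602 to 0.898, edgeR adjusted p = 0.381). Acvrl1, the receptor kinase gene that works with endoglin, stood at 10.9, 6.81 and 7.82 CPM in the saline libraries, against 10.9, 11.5 and 14 CPM in wild type (0.714-fold, 95% interval 0.547 to 0.933, edgeR adjusted p = 0.465). The others past an unadjusted p of 0.05 were Vegfa, the ligand of both VEGF receptors, at 0.762-fold (0.592 to 0.980), the pericyte-recruiting ligand gene Pdgfb at 0.854-fold (0.743 to 0.982) and Tgfb2, a TGF-beta ligand gene, at 1.31-fold (1.01 to 1.70). Of 13 genes listed for Wnt signalling and barrier induction, with Plvap among them, 6 were lower and 7 higher, and 0 passed in any of the 3 tools. At an unadjusted p under 0.05, 2 of them were higher (15.4%, against 3.59% of all genes) and none lower (4.80% of all genes). Those 2 were the beta-catenin gene Ctnnb1, at 1.12-fold (1.01 to 1.24), and the ligand gene Wnt7b, at 1.15-fold (1.00 to 1.31).

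Markers of other cells differed between the same libraries. Meningeal and fibroblast genes were higher in the saline group in 14 of 15, where 51.3% of all genes were. No gene of this list was at 0 in every library. Summed levels were 269 to 352 CPM in the romidepsin group, 237 to 440 CPM in the saline group and 224 to 348 CPM in wild type. The median log2 fold change of the list was 0.63, opposite in sign to that of endothelial genes. At an unadjusted p under 0.05, 7 were higher (46.7%) and none lower, where 3.59% of all genes were higher and 4.80% lower. Of the list 0 passed in edgeR, DESeq2 or limma-voom. Islr, an immunoglobulin-like matrix protein gene, stood at 16.4, 17.4 and 14.7 CPM in the saline libraries, against 8.96 to 13.3 CPM in wild type (1.51-fold, 95% interval 1.19 to 1.90). Aebp1, a matrix protein gene, stood at 20.4, 20.5 and 13 CPM in the saline libraries, against 10.8, 8.81 and 12.8 CPM in wild type (1.69-fold, 95% interval 1.25 to 2.27). Romidepsin library 1, saline library 1 and wild-type library 3, the highest of their groups for smooth muscle genes, were also the highest of their groups for the meningeal list. In the same comparison the median log2 fold change was -0.026 for 10 neuronal genes (6 lower) and 0.023 for 10 astrocyte genes (7 higher). It was 0.065 for 10 microglial genes, 9 of them higher, and -0.075 for 10 oligodendrocyte genes, 9 of them lower. A nearly shared direction within a list was thus not limited to vessel genes. It was 0.55 for choroid plexus and ependymal genes, with 3 of 4 higher, and 0.21 for perivascular macrophage genes, with 3 of 4 higher. The part of meningeal tissue, or of other cell types, in the vessel results was not tested in this comparison or the others. Blood in the samples could not be read from globin genes, since Hba-a1, Hba-a2, Hbb-bs and Hbb-bt are listed at 0 in every library and belong to families of near-identical copies. Alas2, the haem synthesis gene of red blood cells, stood at 0.788 and 0.412 CPM under romidepsin, 1.05, 0.524 and 2.05 CPM under saline and 1.01, 1.96 and 2.51 CPM in wild type.

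Romidepsin against saline asked whether the drug shifted vessel transcripts in the mutants. The log2 fold change was above 0 for 25 of 28 endothelial, 5 of 5 pericyte and 3 of 3 smooth muscle genes, with medians of 0.24, 0.24 and 0.32, against 49.0% of all genes tested (51.0% were below 0) and a median of -0.0029 over them. None of the 36 passed in edgeR, DESeq2 or limma-voom. Of all genes edgeR and limma-voom called 0 and DESeq2 2, and 256 were higher and 227 lower at an unadjusted p under 0.05 in edgeR. At that p, 8 of the 36 were higher and none lower, where 1.73% of all genes were higher and 1.53% lower. All romidepsin libraries lay above all saline libraries in 12 of the 36, where 10.8% of all genes did, and below them in none, where 10.2% did. The saline libraries are also the ones set against wild type, and the 2 comparisons are not independent. Markers of other cells also differed, with 13 of 15 meningeal genes lower (median log2 fold change -0.28), 4 of 4 choroid plexus and ependymal genes lower (-0.48), 4 of 4 perivascular macrophage genes lower (-0.14) and 8 of 10 oligodendrocyte genes lower (-0.19). Of 10 neuronal genes 8 were higher (0.072), 6 of them with all romidepsin libraries above all saline libraries, and 9 of 10 microglial genes were higher (0.081).

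The pericyte gene Abcc9 had the smallest p. It stood at 11.7 and 13.8 CPM in the romidepsin libraries, against 9.70, 6.92 and 6.93 CPM in the saline libraries, with no overlap (1.59-fold, 95% interval 1.19 to 2.13, edgeR adjusted p = 1.00). Adgrl4 stood at 22 and 18.1 CPM in the romidepsin libraries, against 16.2, 11.4 and 13.3 CPM in the saline libraries (1.45-fold, 95% interval 1.13 to 1.87). Flt1 stood at 56.1 and 48.8 CPM in the romidepsin libraries, against 47.8, 31.9 and 38.3 CPM in the saline libraries (1.32-fold, 95% interval 1.06 to 1.65). For Flt1 the lower romidepsin library was close to the higher saline library. Slc2a1 stood at 91.4 and 113 CPM in the romidepsin libraries, against 92.1, 83.2 and 72.5 CPM in the saline libraries, and the groups overlapped (1.23-fold, 95% interval 1.02 to 1.48). Among junction genes Pecam1 stood at 20.4 and 15.9 CPM in the romidepsin libraries, against 18.2, 12.3 and 14 CPM in the saline libraries (1.21-fold, 95% interval 0.922 to 1.59). Sox18 stood at 3.94 and 5.35 CPM in the romidepsin libraries, against 4.59, 2.1 and 4.49 CPM in the saline libraries (1.23-fold, 95% interval 0.773 to 1.96).

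These differences rested on few libraries. With saline library 2 and wild-type library 3 both left out, 21 endothelial genes were higher (median 0.11) and 3 were higher at an unadjusted p under 0.05. Of the 28 endothelial genes, 6 were higher at an unadjusted p under 0.05, and that count was 1 without romidepsin library 1, 2 without saline library 2, 3 without wild-type library 2 and 11 without saline library 1. In the full fit 1.73% of all genes were higher at that p, and this share was not counted in the other fits. The median log2 fold change of endothelial genes was 0.083 without romidepsin library 1 and 0.38 without saline library 1. The separate endothelial list had 23 of 32 genes higher (median 0.19) and the separate mural list 13 of 16 (median 0.12).

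Romidepsin against wild type set the treated mutants against their littermates and showed small endothelial differences. The log2 fold change was below 0 for 23 of 28 endothelial genes, with a median of -0.094, where 50.0% of all genes were below 0 and 50.0% above. It was above 0 for 4 of 5 pericyte genes (median 0.25) and 3 of 3 smooth muscle genes (median 0.45), and the smooth muscle median was -1.0 without romidepsin library 1. None of the 36 passed in edgeR, DESeq2 or limma-voom (smallest edgeR adjusted p = 0.999), while 1 of all genes tested, or 0.00675%, passed in edgeR. Of the 36, 2 (5.56%) had an unadjusted p under 0.05, both lower, where 1.78% of all genes were lower and 1.46% higher. All romidepsin libraries lay below all wild-type libraries in 6 of the 36, where 9.08% of all genes did, and above them in 2, Emcn and Egfl7, where 9.34% did. Tie1 stood at 9.16 and 7.82 CPM in the romidepsin libraries, against 10.8, 11.1 and 12.9 CPM in wild type (0.731-fold, 95% interval 0.557 to 0.960). Ly6c1 stood at 11.6 and 14.8 CPM in the romidepsin libraries, against 14.2, 18.4 and 19.5 CPM in wild type (0.759-fold, 95% interval 0.593 to 0.971). The count of endothelial genes below 0 was 15 without romidepsin library 2, without wild-type library 3, or without both saline library 2 and wild-type library 3. The separate endothelial list had 21 of 32 genes lower (median -0.12) and the separate mural list 13 of 16 higher (median 0.19). In the same comparison 10 of 10 oligodendrocyte genes were lower (median log2 fold change -0.27), as were 3 of 4 choroid plexus and ependymal genes (-0.42). Higher were 15 of 15 meningeal genes (0.30), 10 of 10 microglial genes (0.15) and 8 of 10 neuronal genes (0.068). Against the saline group, romidepsin libraries had 0.971-fold the level of Tie1 (95% interval 0.734 to 1.28) and 1.03-fold that of Ly6c1 (0.797 to 1.32). Wild-type libraries enter this comparison and that of saline against wild type.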

How the data were processed

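Each library's deposited table holds raw counts of reads for every gene symbol, as the authors counted them. Alignment with TopHat2 2.1.1 to mm10/GRCm38 and counting with HTSeq 0.6.1 followed base calling with bcl2fastq 2.17.1.14, per the submitters' processing notes. Annotation and strand setting: not given in the sources used here. HTSeq's 5 summary entries, present in 7 libraries, were left out. In those, 32.4% to 35.3% of counted alignments fell on genes. No pair of libraries agreed within sampling noise (chi-square per degree of freedom from 3.14 to 20.76).

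Counts were tested with edgeR 4.0.16 in R 4.3.3. Of the genes, filterByExpr kept 14809 and removed 9611. Scaling used TMM factors, and all 8 libraries entered a single robust quasi-likelihood fit. Benjamini-Hochberg adjustment ran over all genes tested, with a threshold of 0.05. Levels are CPM with that scaling, and intervals of folds are at 95%. Alternatives were DESeq2 1.42.0, limma 3.58.1 (voom), other filters and scalings, a replicate block, leaving out each library and, chosen after seeing the data, leaving out the pair that stood apart. Coordinates and exonic lengths are from GENCODE M21 (GRCm38), and promoters from RefSeq GRCm38.p6.

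The members and gene lists were chosen with earlier results of these data known. Per-library values are given for the 2 genes of each role group with the smallest p in saline against wild type, the 1 with the smallest p in romidepsin against saline, and all 3 smooth muscle genes. Of each other vessel or meningeal list, the 2 genes with the smallest p in saline against wild type are named. Other genes were named after their values were seen.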

Additional observations from a re-analysis of the deposited data

How the results depend on the processing

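Of the 36 vessel genes, the number passing in saline against wild type was 0 in the reported fit, 2 with DESeq2, 1 with no filter on low counts, and 0 to 1 with single libraries left out. The number of all genes passing in that comparison was 1 as reported, 29 with DESeq2, 12 with no filter, 2 with only the 2 groups compared, 4 with replicate number as a block, and 1 to 54 with single libraries left out, the most without wild-type library 3. For romidepsin against saline it was 0, and 2 with DESeq2 or 0 to 3 with single libraries left out. For romidepsin against wild type it was 1, and 0 with library totals only, with at least 10 counts in every library or with the replicate block, 2 with no filter, 4 with DESeq2, and 0 to 3 with single libraries left out. Counts of endothelial genes were recomputed by choice made after seeing the data. The shares of all genes at the same cutoffs were not counted in those fits. Those higher at an unadjusted p under 0.05 in romidepsin against saline numbered 6, and 3 with library totals only or limma-voom, and 1 to 11 with single libraries left out. In romidepsin against wild type 2 were lower at that p, 1 with the replicate block and 0 to 4 with single libraries left out, and the number below 0 was 15 to 24 instead of 23. With saline library 2 and wild-type library 3 both left out, a choice also made after seeing the data, all genes passing numbered 99 in saline against wild type and 14 in romidepsin against wild type. Endothelial genes past an unadjusted p of 0.05 then numbered 4 lower in saline against wild type, 3 higher in romidepsin against saline and 0 lower in romidepsin against wild type, where 15 were below 0. The smooth muscle median, with single libraries left out, ran from -0.72 to 1.04 in romidepsin against saline and from -1.0 to 1.01 in romidepsin against wild type.

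Alternatives were run on all genes and compared gene by gene for 15 of the 36, those named by rule. The log2 fold changes of these 15 genes reversed in 20 cases, and reversals among the other genes were not counted. In saline against wild type, Tagln ran from -0.029 (without saline library 1) to 0.55, Acta2 from -0.37 (without saline library 1) to 0.43, with -0.014 without wild-type library 2, and Myh11 from -0.78 to 0.024 (without saline library 3). In romidepsin against saline, Ly6c1 ran from -0.15 (without romidepsin library 2) to 0.20, Tagln from -0.37 to 0.78, Acta2 from -1.35 upward, with -0.11 under limma-voom, and Myh11 from -0.72 upward, the lowest of these 3 without romidepsin library 1. In romidepsin against wild type, Slco1c1 ran from -0.22 to 0.066 (without wild-type library 3) and stood at 0.017 with the replicate block. Slc2a1 ran from -0.16 to 0.14 (without romidepsin library 1), with 0.07 without wild-type library 2 and 0.0066 without wild-type library 3. Without romidepsin library 1, Tagln stood at -0.13, Acta2 at -1.2 and Myh11 at -1.0, and without romidepsin library 2 Acta2 stood at 1.19 and Myh11 at 0.77. Myh11 also stood at -0.053 with limma-voom, -0.041 with the replicate block and -0.033 without wild-type library 2. The cause was not tested. No alternative run moved the endothelial or pericyte medians by more than the spread between replicates, which is a wide measure. For the endothelial list it was an SD of 0.17, beside medians of -0.31 in saline against wild type, 0.24 in romidepsin against saline and -0.094 in romidepsin against wild type. Without romidepsin library 1 the latter 2 medians were 0.083 and -0.25.

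Deviations of same-numbered libraries from their group means had r from -0.175 to 0.103 over 7 pairs, against -0.156 to 0.236 over 14 other pairs. Of the libraries, 3 of 8 correlated best with one of their own number. Deviations from means of so few libraries depend on each other, so these values cannot decide whether replicate numbers mark pairs. A lone romidepsin library, left when the other was removed, was assumed to vary like the other groups. Low counts limit Sox17, Sox18 and Robo4.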
